A study of Mus musculus with 15 samples.

Results

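The 32 genes described here are expressed by oligodendrocytes, the myelin-forming glia of the brain, or by their precursors. They were chosen by symbol, with the condition that the mean rlog value over the 15 mice was at least 3, and all 32 met it. The deposited table lists 24982 gene symbols, and 15261 of them met the same minimum and were tested. Of the 32 members, 28 are myelin genes, used by mature myelinating oligodendrocytes, and 4 (*Pdgfra*, *Gpr17*, *Olig1* and *Olig2*) are called precursor genes, although *Olig1* and *Olig2* stay on in mature cells.

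Bulk mRNA of the ventral striatum, pooled from the left and right side of a mouse, was sequenced in 15 animals. There were 4 males and 4 females with intact *Fmr1* (WT), 3 hemizygous *Fmr1* KO males and 4 homozygous *Fmr1* KO females. All were C57BL/6J mice aged 2 to 3 months that had completed behavioral tests, and none received a drug or carried another allele as far as the labels say. *Fmr1* is inactivated in all cells of these constitutive knockouts. The line was bred within itself, so WT and *Fmr1* KO mice were not littermates, and colony and genotype cannot be told apart. Another *Fmr1* KO male had been set aside by the authors as an outlier of their principal components, and it is not part of the values described. Expression is given as the authors' rlog, the regularized logarithm to base 2 that DESeq2 computes jointly over samples. A difference of 1 is a 2-fold change, weakly expressed genes are drawn toward their mean, and no read totals are carried, so read depth per mouse is unknown. In bulk tissue, fewer oligodendrocytes and less RNA per oligodendrocyte cannot be told apart.

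Oligodendrocytes arise from precursor cells that divide in response to platelet-derived growth factor through the receptor encoded by *Pdgfra*. Cells that commit to differentiation pass through a stage marked by the receptor *Gpr17*, and the transcription factors *Sox10* and *Myrf* then switch on the proteins and lipid enzymes of the myelin sheath. In the ventral striatum, myelin is found mainly in fibre bundles of the anterior commissure and the internal capsule that run through or beside the grey matter.

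The labels were checked with *Fmr1*, the targeted gene. Its rlog was 10.62 to 10.88 in the 8 WT mice and 9.82 to 10.08 in the 7 *Fmr1* KO mice. No knockout reached the lowest WT mouse. Across genes, mice within a group correlated at 0.992 to 0.999. The 22 listed markers of striatal projection neurons had mean rlog values of 9.47 to 14.4, and none was at 0, but WT male 3 and WT female 1 stood apart from the other WT mice. Their projection neuron scores were −0.030 and −0.25, against 0.28 to 0.39 in the other 6 WT mice, and their scores for markers of neighbouring regions were 0.32 and 0.27, against −0.57 to −0.30. To obtain a score, each gene's mean over the 15 mice was subtracted from its rlog values and the results were averaged over the list.

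The promoters of some members are shown first, since the factors that drive the myelin genes are themselves members. RefSeq promoter windows of GRCm38.p6, each 300 bases long with 250 before and 50 after the start of the gene, were matched by symbol for 23 of the 32 members, which gave 32 windows. A few are printed 5′ to 3′ on the strand of the gene. *Hapln2* and *Ermn* had the largest differences among the structural myelin genes in males, *Mal* and *Opalin* are structural myelin genes with differences near 0 in males, and *Pdgfra* marks the precursors. Capitals mark matches, on either strand, to the SOX core (ACAAAG or ACAATG), the short sequence that SOX factors such as SOX10 prefer, and to the MYRF core (CTGGCAC or CTGGTAC).
Hapln2, chr3:88027462-88027761, minus strand: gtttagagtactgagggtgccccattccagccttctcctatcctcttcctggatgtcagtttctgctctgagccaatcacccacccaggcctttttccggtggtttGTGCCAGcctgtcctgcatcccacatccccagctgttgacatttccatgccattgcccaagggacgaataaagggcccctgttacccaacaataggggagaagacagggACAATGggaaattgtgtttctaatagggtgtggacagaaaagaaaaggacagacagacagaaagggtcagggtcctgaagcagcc
Ermn, chr2:58052815-58053114, minus strand: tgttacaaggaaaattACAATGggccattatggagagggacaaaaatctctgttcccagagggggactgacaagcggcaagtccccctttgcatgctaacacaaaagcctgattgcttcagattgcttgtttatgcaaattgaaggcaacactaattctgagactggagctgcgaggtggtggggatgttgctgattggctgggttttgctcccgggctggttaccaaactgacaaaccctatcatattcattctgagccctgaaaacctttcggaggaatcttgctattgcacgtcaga
Mal, chr2:127656646-127656945, minus strand: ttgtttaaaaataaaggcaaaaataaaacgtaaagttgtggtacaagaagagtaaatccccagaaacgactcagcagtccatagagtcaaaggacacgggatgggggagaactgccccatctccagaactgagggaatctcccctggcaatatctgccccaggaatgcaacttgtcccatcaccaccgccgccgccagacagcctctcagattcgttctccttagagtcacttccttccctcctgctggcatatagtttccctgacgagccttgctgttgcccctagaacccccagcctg
Opalin, chr19:41077064-41077363, minus strand: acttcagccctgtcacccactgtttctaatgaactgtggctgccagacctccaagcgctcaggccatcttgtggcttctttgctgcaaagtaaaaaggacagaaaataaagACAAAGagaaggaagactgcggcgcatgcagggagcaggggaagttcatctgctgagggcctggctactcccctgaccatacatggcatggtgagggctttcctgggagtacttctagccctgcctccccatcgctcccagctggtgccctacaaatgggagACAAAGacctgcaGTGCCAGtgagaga
Pdgfra, chr5:75152001-75152300, plus strand: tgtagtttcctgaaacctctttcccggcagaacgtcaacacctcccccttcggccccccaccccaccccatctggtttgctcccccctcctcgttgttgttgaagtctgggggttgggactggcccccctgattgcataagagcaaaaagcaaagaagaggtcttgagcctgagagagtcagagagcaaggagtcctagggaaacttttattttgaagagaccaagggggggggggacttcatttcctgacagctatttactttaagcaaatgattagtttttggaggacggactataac
The *Hapln2* window held 1 SOX core at −35 from the start of the gene and 1 MYRF core, the *Ermn* window 1 SOX core at −234, the *Opalin* window 2 SOX cores and 1 MYRF core, and the *Mal* and *Pdgfra* windows neither. A SOX core was found in 13 of the 32 member windows (40.6%) and in 28.6% of all 32851 windows. The MYRF core was found in 6 of the 32 member windows (18.8%) and in 7.1% of all windows, and the member genes that held it were *Cnp*, *Hapln2*, *Mag*, *Mog* and *Opalin*. The E-box CAGCTG was found in 15.6% of member windows and 16.3% of all windows. Windows of 1 gene can overlap, and by gene the SOX core was held by 47.8% of the 23 members and 31.7% of all 27025 genes, and the MYRF core by 21.7% and 8.1%. SOX and MYRF matches did not overlap each other within the printed windows. A match is a description of letters, and both genes with large differences and genes with differences near 0 in males held one.

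Levels of different genes were compared only after the log2 of the exonic length in kilobases was subtracted from the mean rlog of the 8 WT mice. On this scale, per kilobase, *Mobp* and *Mbp*, which encode basic proteins of compact myelin, stood at the 99.7th and 99.6th percentile of 15119 ranked genes. *Cnp*, a protein of the non-compact parts of the sheath, stood at 99.2, *Mal*, a proteolipid of myelin membranes, at 99.1, and *Trf*, the iron carrier transferrin, at 98.4. The regulators were lower, with *Olig1* at 82.7, *Sox10* at 71.9, *Myrf* at 66.7, *Olig2* at 58.9 and *Nkx6-2*, a homeodomain factor of the lineage, at 42.6. *Ppp1r14a*, an inhibitor of protein phosphatase 1, was the lowest member at 28.3. The precursor receptor *Pdgfra* stood at 61.6 and *Gpr17* at 79. The tissue held RNA of both mature oligodendrocytes and precursors.

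Over both sexes, with sex as a term in the limma model, none of the 32 members passed an adjusted p of 0.05, which 1.28% of the 15261 genes passed (75 higher and 121 lower in *Fmr1* KO). Most members lay on 1 side of 0. The difference of *Fmr1* KO from WT was above 0 for 29 of 32 members (90.6%), against 51.1% of all genes tested. The median difference was 0.15 for the 28 myelin genes and 0.044 for the 4 precursor genes, on the log2 scale, against 0.0021 for all genes. At an unadjusted p under 0.05, 9 members were higher (28.1%), against 11.6% of all genes, and none was lower, against 11.8%. These 9 were *Ermn*, *Hapln2*, *Aspa*, *Gjb1*, *Gjc3*, *Gpr37*, *Trf*, *Tmem88b* and *Ndrg1*, and all are myelin genes. The smallest adjusted p was that of *Hapln2* (0.0803). The count of 9 was 4 without WT male 3 and WT female 1, when 15.5% of all genes were higher. Leaving out 1 mouse moved it to between 2 (without *Fmr1* KO male 1, 9.37% of all genes) and 17 (without *Fmr1* KO female 4, 13.7%). It was 3 without WT male 2 (9.74%), WT female 4 (9.39%), *Fmr1* KO male 4 (11.8%) or *Fmr1* KO female 3 (8.41%). It was 5 without WT male 4 (9.58%). The excess of members over all genes therefore depended on which mice were kept. Members passed the adjusted threshold in 3 of the 26 alternatives. Without WT female 1, *Hapln2* passed (limma adjusted p = 0.0422), when 13.6% of all genes were higher at an unadjusted p under 0.05. Without *Fmr1* KO female 4, *Hapln2*, *Ermn* and *Gjb1* passed (limma adjusted p of 0.0392 to 0.0491), when 13.7% were higher. With sample quality weights 5 members passed, when 4767 of all genes did. Over the 26 alternatives, 1 to 4767 of all genes passed the adjusted threshold, against 196 in the main fit.

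**Figure D1:**
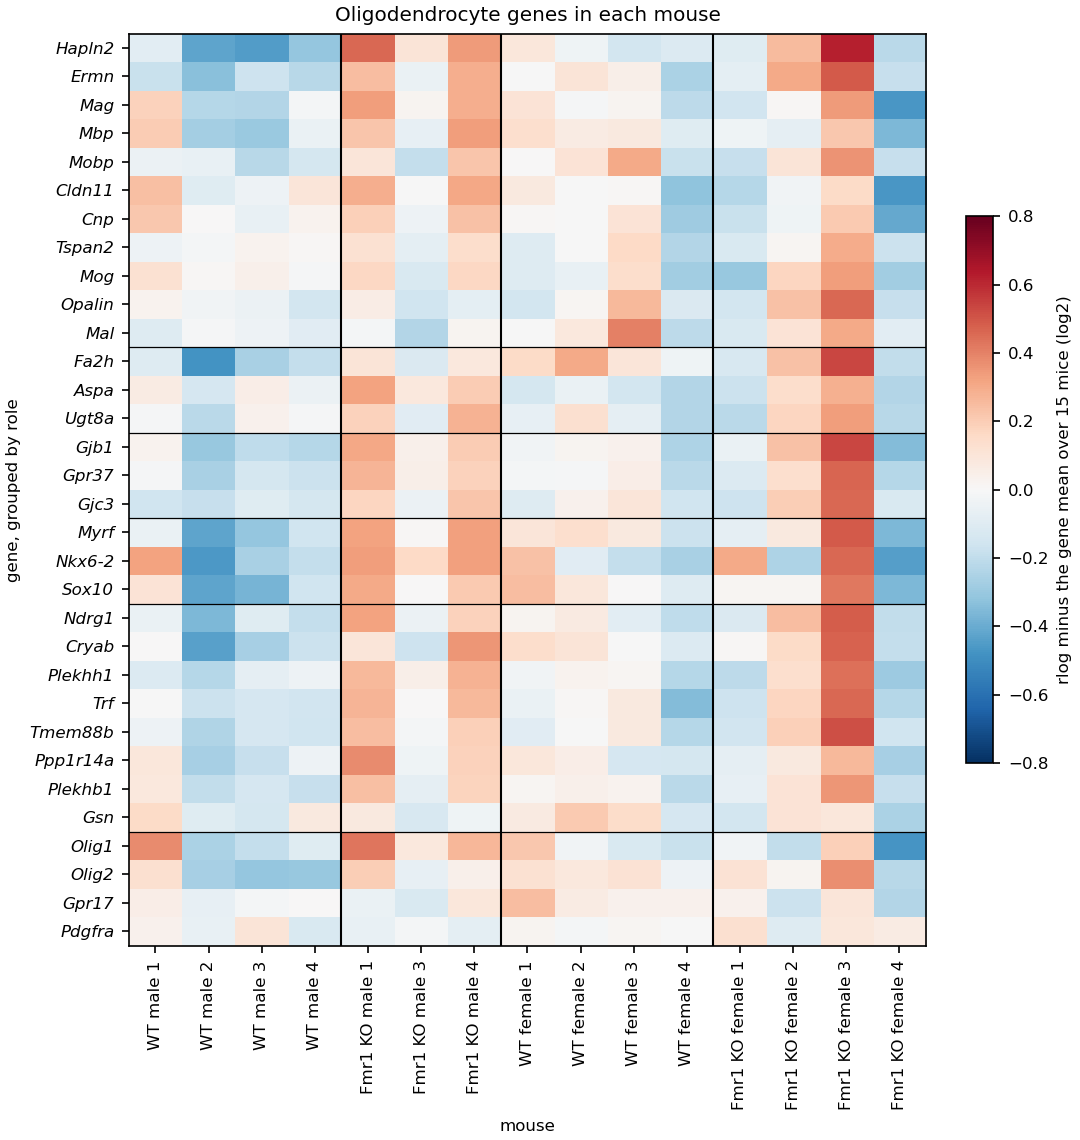
Heat map of rlog values (log2 scale, color) after each gene's mean over the 15 mice was subtracted, for the 32 members (rows, in blocks by role) in each mouse (columns, in blocks by group). Columns are mostly of 1 color: *Fmr1* KO males 1 and 4 and *Fmr1* KO female 3 are high over nearly all myelin genes, WT male 2 and *Fmr1* KO female 4 are low, and *Pdgfra* in the bottom row varies little.

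The comparison within males was made with 3 *Fmr1* KO and 4 WT mice. No member passed the adjusted threshold, which 0.00655% of genes passed (1 gene). The difference was above 0 for 27 of the 32 members, against 50.1% of all genes tested, with a median of 0.28 for the myelin genes, 0.11 for the precursor genes and 0.00018 for all genes. At an unadjusted p under 0.05, 18 members were higher (56.2%), against 8.75% of all genes, and none was lower, against 8.45%. All 18 were myelin genes. For 11 of the 32 members every *Fmr1* KO male lay above every WT male, which held for 6.59% of all genes. They were *Ermn*, *Hapln2*, *Aspa*, *Gjb1*, *Gjc3*, *Gpr37*, *Myrf*, *Trf*, *Plekhh1*, *Tmem88b* and *Ndrg1*. The count of 18 was 13 without WT male 3, the WT male that stood apart, when 10.5% of all genes were higher. It was 12 without *Fmr1* KO male 4 (8.15% of all genes) and 10 without *Fmr1* KO male 1 (4.69%). With sample quality weights 9 members passed the adjusted threshold in males, when 1865 of all genes did.

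The comparison within females was made with 4 mice of each genotype, and no member passed the adjusted threshold, which 0.0131% of genes passed (2 genes). No member passed an unadjusted p under 0.05 in either direction, against 6.55% of genes higher and 7.93% lower, with or without WT female 1, and for none did every *Fmr1* KO female lie above every WT female, against 3.59% of genes. The difference was above 0 for 21 of 32 members, against 51.2% of all genes. Its median was 0.076 for the myelin genes and −0.049 for the precursor genes, against 0.0028 for all genes. The female median of the myelin genes was −0.050 without *Fmr1* KO female 3 and 0.16 without *Fmr1* KO female 4, so its sign rested on 1 mouse.

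**Figure D2:**
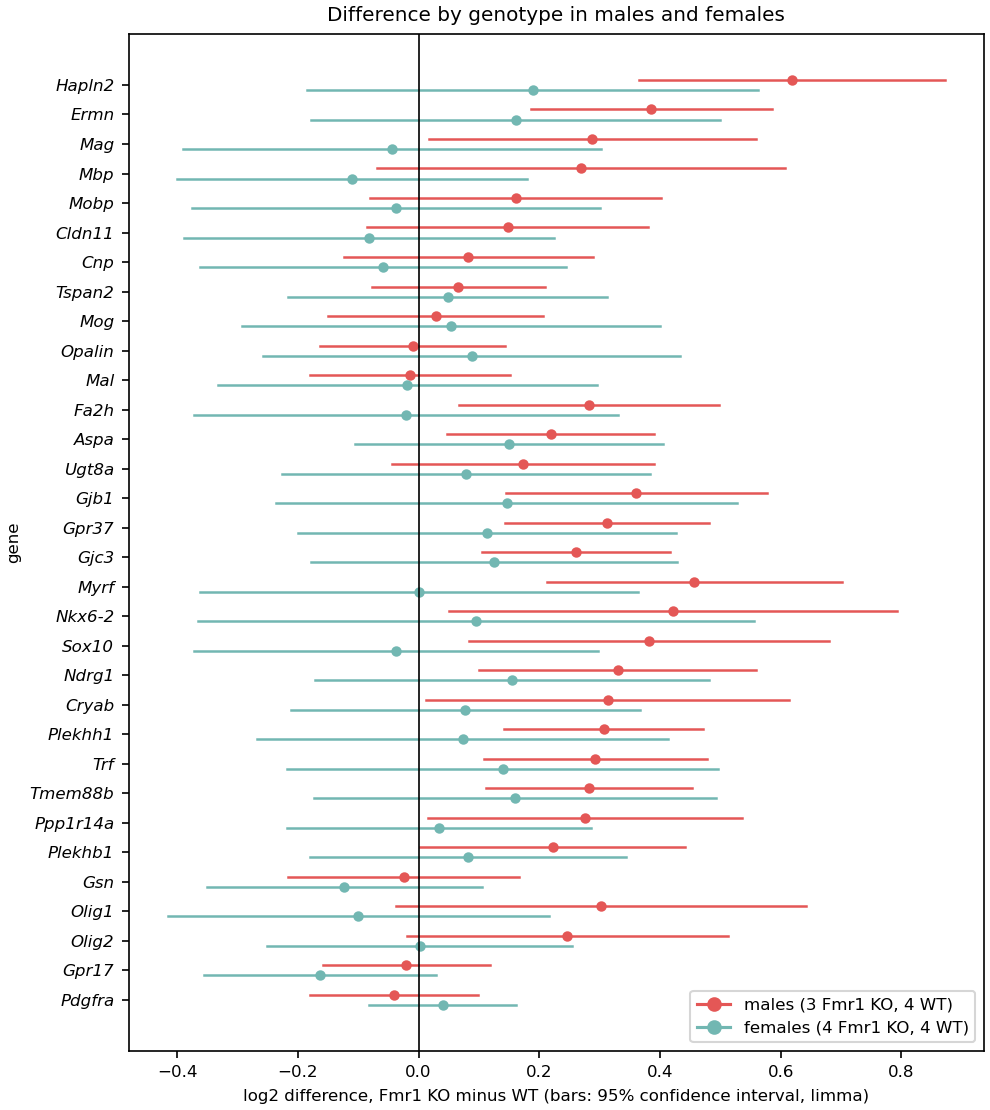
Log2 difference of *Fmr1* KO from WT (x axis) for each member (y axis, in the order of the heat map), in 3 *Fmr1* KO against 4 WT males and in 4 against 4 females; points are limma estimates and bars 95% confidence intervals. In males 27 of 32 points lie to the right of 0, with *Hapln2* farthest at 0.62; in females 21 do, and every female interval crosses 0.

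The difference between the sexes in the effect of genotype was tested as an interaction. No member passed the adjusted threshold, nor did any gene (0%), and the smallest adjusted p among the members was 0.791. The effect was smaller in females than in males, or more negative, for 29 of 32 members and for 7343 of the 15261 genes, with a median of −0.20 over the members. None passed an unadjusted p under 0.05, which 3.46% of genes passed on the lower side. The members with the smallest p were *Myrf* (−0.46 ± 0.21, SE; limma unadjusted p = 0.0518, adjusted p = 0.791) and *Hapln2* (−0.43 ± 0.22; unadjusted p = 0.0718, adjusted p = 0.791). A difference between the sexes was therefore not shown, and the 95% intervals were wide, at −0.92 to 0.0041 for *Myrf* and −0.90 to 0.043 for *Hapln2*.

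Among WT mice alone, females were compared with males in the model of the 4 group means. No member passed the adjusted threshold, which 2.82% of genes passed. The difference was above 0 for 26 of 32 members, against 51.6% of all genes, with a median of 0.079, and 2 members (6.25%) were higher in females at an unadjusted p under 0.05, against 7.07% of all genes. These were *Fa2h*, which adds a hydroxyl group to the fatty acids of myelin lipids (0.39 ± 0.14, SE; limma adjusted p = 0.169), and *Olig2* (0.26 ± 0.12; adjusted p = 0.319). The WT males are also the baseline of the comparison within males.

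In what follows, values are listed in the order of the replicate numbers, which were 1 to 4 in each group except the *Fmr1* KO males, with 1, 3 and 4. The 11 structural myelin genes are described first. Their median difference was 0.054 over both sexes, 0.15 in males and −0.018 in females. *Hapln2* encodes a link protein that ties hyaluronan to proteoglycans in the matrix around nodes of Ranvier. It measured 8.57, 8.23, 8.20 and 8.34 in the WT males and 9.11, 8.76 and 8.99 in the *Fmr1* KO males. The 2 groups of males did not overlap. It measured 8.74, 8.61, 8.50 and 8.54 in the WT females and 8.56, 8.90, 9.27 and 8.43 in the *Fmr1* KO females. The female groups overlapped. The knockouts at 8.90 and 9.27 lay above every WT female, and the knockout at 8.43 lay below every one. The difference was 0.62 ± 0.11 in males (SE; 1.54-fold; limma unadjusted p = 0.000418, adjusted p = 0.11), the largest of any member in that comparison. In females it was 0.19 ± 0.17 (adjusted p = 0.609), and over both sexes 0.39 ± 0.12 (1.31-fold; adjusted p = 0.0803).

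*Ermn* encodes ermin, a cytoskeletal protein of mature oligodendrocytes that binds actin. Its values were 11.28, 11.13, 11.30 and 11.24 in WT males against 11.71, 11.41 and 11.75 in *Fmr1* KO males. Every knockout male was above every WT male. In females the values were 11.46, 11.56, 11.51 and 11.21 in WT and 11.38, 11.77, 11.96 and 11.28 in *Fmr1* KO mice, with 2 knockouts above all WT mice and the other 2 within their range. The difference was 0.39 ± 0.087 in males (SE; 1.31-fold; limma adjusted p = 0.123), 0.16 ± 0.15 in females (adjusted p = 0.629) and 0.26 ± 0.097 over both sexes (adjusted p = 0.121).

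*Mbp*, which encodes the basic protein that holds the inner faces of the compact sheath together, had the highest rlog of the members. It measured 15.61, 15.13, 15.11 and 15.35 in the WT males and 15.63, 15.34 and 15.74 in the *Fmr1* KO males. WT males 1 and 4 lay within the range of the knockouts. In females it measured 15.54, 15.47, 15.48 and 15.31 in WT and 15.37, 15.33, 15.62 and 15.05 in *Fmr1* KO mice, where the knockouts held both the highest and the lowest value. The difference was 0.27 ± 0.15 in males (SE; limma adjusted p = 0.392), −0.11 ± 0.13 in females (adjusted p = 0.703) and 0.065 ± 0.11 over both sexes (adjusted p = 0.758).

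The other structural genes spread between these. *Mag*, an adhesion protein of the membrane next to the axon, differed by 0.29 in males (unadjusted p = 0.0394, limma adjusted p = 0.269) and −0.044 in females. *Mobp* differed by 0.16 in males, *Cldn11*, the tight junction claudin of myelin, by 0.15, *Cnp* by 0.082 and the tetraspanin *Tspan2* by 0.066, and all 4 had intervals that included 0. *Mog*, a protein of the outermost myelin layer, differed by 0.028, *Opalin*, a glycoprotein of oligodendrocyte membranes, by −0.0095, and *Mal* by −0.014. For these last 3 genes the upper limits of the 95% intervals in males were 0.21, 0.14 and 0.15, below the estimates of *Hapln2* and *Ermn*. A test of one gene against another was not made.

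The 3 lipid and metabolic enzymes had a median difference of 0.22 in males and 0.078 in females. *Aspa* encodes aspartoacylase, which splits N-acetylaspartate and so gives acetate for lipid synthesis. It measured 9.35, 9.14, 9.33 and 9.23 in WT males and 9.60, 9.36 and 9.48 in *Fmr1* KO males. The groups of males were separate, though by a narrow margin. It measured 9.14, 9.22, 9.13 and 9.04 in WT females and 9.11, 9.42, 9.56 and 9.04 in *Fmr1* KO females, which overlapped. The difference was 0.22 ± 0.075 in males (SE; limma adjusted p = 0.208) and 0.15 ± 0.11 in females (adjusted p = 0.553). *Fa2h* differed by 0.28 in males (unadjusted p = 0.0161, adjusted p = 0.198) and −0.020 in females, and *Ugt8a*, which makes galactosylceramide, by 0.17 and 0.078.

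The connexins *Gjb1* and *Gjc3*, which form channels in oligodendrocyte and myelin membranes, and the receptor *Gpr37* had a median difference of 0.31 in males and 0.13 in females. *Gjb1* lies on the X chromosome, as *Fmr1* does. All 3 were separate between the groups of males, with differences of 0.36, 0.26 and 0.31 (limma adjusted p = 0.141, 0.141 and 0.128). In females the differences were 0.15, 0.13 and 0.11, with intervals that included 0.

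Of the transcription factors of myelinating cells, *Myrf*, which activates myelin genes directly, measured 10.69, 10.32, 10.43 and 10.59 in WT males and 11.07, 10.75 and 11.07 in *Fmr1* KO males. No WT male reached the lowest knockout male. It measured 10.84, 10.88, 10.82 and 10.57 in WT females and 10.67, 10.82, 11.24 and 10.38 in *Fmr1* KO females, and the WT values lay inside the range of the knockouts. The difference was 0.46 ± 0.11 in males (SE; 1.37-fold; limma adjusted p = 0.127), 0.0011 ± 0.16 in females (adjusted p = 0.998) and 0.21 ± 0.12 over both sexes (adjusted p = 0.296).

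*Sox10*, which specifies and maintains the lineage, measured 10.09, 9.55, 9.60 and 9.82 in WT males and 10.28, 9.98 and 10.18 in *Fmr1* KO males. WT male 1 overlapped the knockouts, and the other WT males were below them. It measured 10.22, 10.07, 9.98 and 9.87 in WT females and 9.99, 9.99, 10.40 and 9.62 in *Fmr1* KO females, again with the knockouts at both ends. The difference was 0.38 ± 0.13 in males (SE; limma adjusted p = 0.206) and −0.037 ± 0.15 in females (adjusted p = 0.922). *Nkx6-2* differed by 0.42 in males (adjusted p = 0.246) and 0.095 in females.

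**Figure D3:**
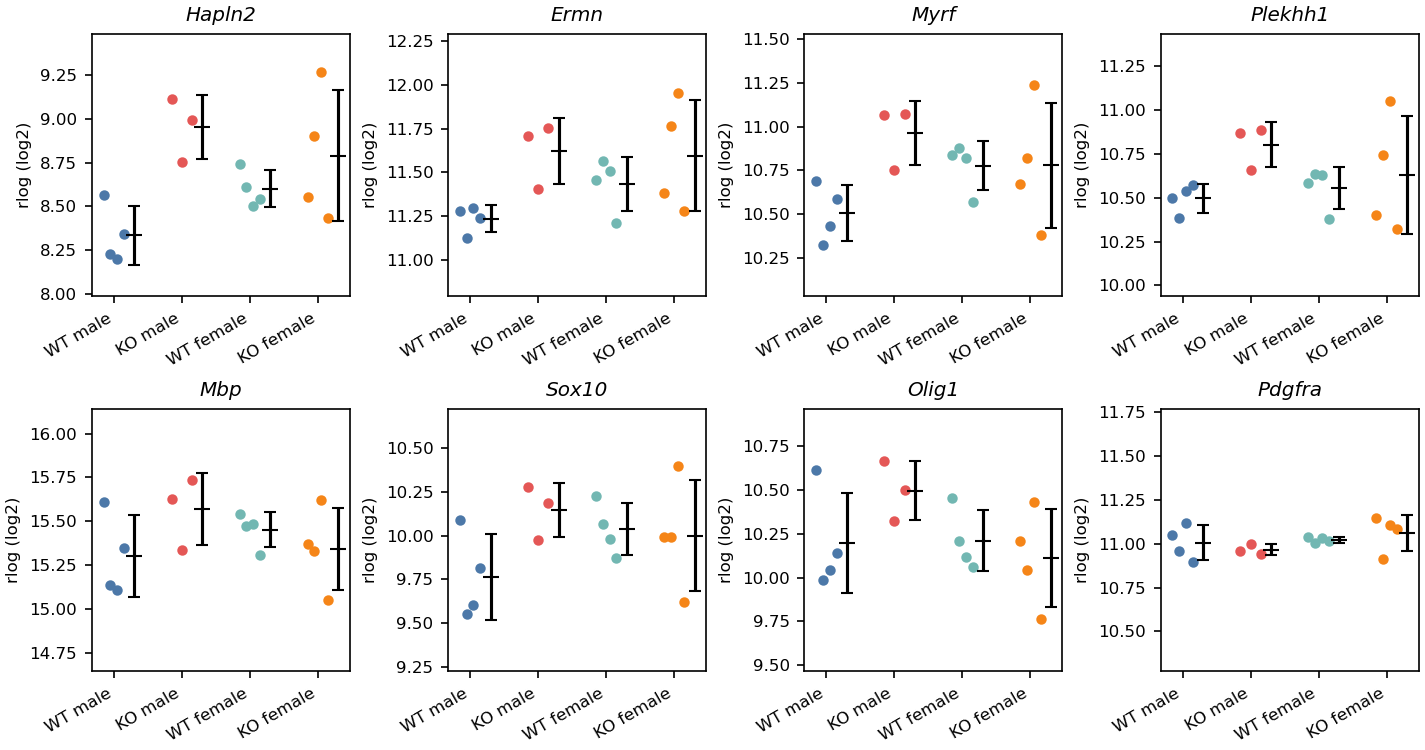
The rlog value (y axis, log2 scale, each panel spanning the same 1.5 units) of 8 members in each mouse by group (x axis); points are mice, and the black marks are the mean and SD of the group. *Hapln2*, *Ermn*, *Myrf* and *Plekhh1* show separate groups in males and overlapping groups in females, *Mbp*, *Sox10* and *Olig1* overlap in both sexes, and *Pdgfra* hardly varies.

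The 8 other genes of mature oligodendrocytes had a median difference of 0.29 in males and 0.080 in females, and 7 of them were higher in males at an unadjusted p under 0.05, against 8.75% of all genes. *Ndrg1*, a cytoplasmic protein whose loss damages peripheral myelin in mice and people, measured 11.46, 11.15, 11.41 and 11.32 in WT males and 11.83, 11.46 and 11.70 in *Fmr1* KO males. The lowest knockout and the highest WT male nearly touched. It measured 11.53, 11.58, 11.43 and 11.31 in WT females and 11.40, 11.76, 12.00 and 11.31 in *Fmr1* KO females, which overlapped. The difference was 0.33 ± 0.10 in males (SE; limma adjusted p = 0.172), 0.15 ± 0.14 in females (adjusted p = 0.631) and 0.24 ± 0.096 over both sexes (adjusted p = 0.157).

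*Plekhh1*, a protein with pleckstrin homology domains, measured 10.50, 10.38, 10.54 and 10.57 in WT males and 10.87, 10.66 and 10.89 in *Fmr1* KO males. The groups did not overlap, and the WT males lay close together. In females it measured 10.58, 10.64, 10.63 and 10.38 in WT and 10.40, 10.74, 11.05 and 10.32 in *Fmr1* KO mice, 2 above and 1 below all WT females. The difference was 0.31 ± 0.072 in males (SE; limma adjusted p = 0.127) and 0.073 ± 0.15 in females (adjusted p = 0.84).

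*Tmem88b*, a membrane protein gene, measured 11.13, 10.93, 11.04 and 11.01 in WT males and 11.42, 11.16 and 11.37 in *Fmr1* KO males, which did not overlap. It measured 11.08, 11.17, 11.25 and 10.95 in WT females and 11.02, 11.36, 11.69 and 11.01 in *Fmr1* KO females, which did. The difference was 0.28 ± 0.075 in males (SE; limma adjusted p = 0.144) and 0.16 ± 0.15 in females (adjusted p = 0.628). *Gsn*, the actin-severing protein gelsolin, was the member of this group on the other side of 0. It measured 10.87, 10.62, 10.58 and 10.79 in WT males and 10.79, 10.59 and 10.69 in *Fmr1* KO males, and 10.79, 10.93, 10.86 and 10.59 in WT females and 10.57, 10.83, 10.81 and 10.47 in *Fmr1* KO females. The genotypes overlapped in both sexes. Its difference was −0.025 ± 0.084 in males (SE; limma adjusted p = 0.91) and −0.12 ± 0.10 in females (adjusted p = 0.586).

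The remaining members of this group were higher in males at an unadjusted p under 0.05. *Trf* differed by 0.29 (limma adjusted p = 0.151), the small heat shock protein gene *Cryab* by 0.31, *Ppp1r14a* by 0.28 and *Plekhb1* by 0.22 (adjusted p of 0.269 to 0.285). Transferrin is also made by the choroid plexus. In *Fmr1* KO males 10 of 11 markers of that epithelium lay on the higher side, against 50.1% of all genes. Their median difference was 0.34. The choroid plexus score was 0.34 to 0.43 in *Fmr1* KO males and −0.30 to −0.0082 in WT males, without overlap. Its part in the value of *Trf* was not tested.

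The 4 precursor genes comprised *Pdgfra* and *Gpr17*, with SDs within groups of 0.075 and 0.11, and *Olig1* and *Olig2*, with SDs of 0.24 and 0.18. *Pdgfra*, which marks dividing precursors and is also expressed by some fibroblasts of the meninges, measured 11.05, 10.96, 11.12 and 10.90 in WT males and 10.96, 11.00 and 10.94 in *Fmr1* KO males. It measured 11.04, 11.00, 11.03 and 11.02 in WT females and 11.15, 10.91, 11.10 and 11.08 in *Fmr1* KO females. The groups overlapped in both sexes, and the difference over both sexes was 0.0029 ± 0.040 (SE; limma adjusted p = 0.975), with a 95% interval of −0.083 to 0.088. For comparison, the median difference of the 28 myelin genes over both sexes was 0.15, and the largest, that of *Hapln2*, was 0.39. *Pdgfra* was not tested against the myelin genes.

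*Gpr17*, the receptor of precursors that have begun to differentiate, measured 11.23, 11.11, 11.16 and 11.18 in WT males and 11.13, 11.06 and 11.27 in *Fmr1* KO males. It measured 11.43, 11.25, 11.22 and 11.21 in WT females and 11.22, 11.01, 11.28 and 10.94 in *Fmr1* KO females. The male groups overlapped, and in females 2 knockouts lay below all WT mice. The difference was −0.020 ± 0.061 in males (SE; limma adjusted p = 0.895), −0.16 ± 0.085 in females (adjusted p = 0.405) and −0.097 ± 0.056 over both sexes (adjusted p = 0.31), the lowest value of any member.

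*Olig1* and *Olig2* encode the helix-loop-helix factors that establish the lineage. *Olig1* measured 10.61, 9.98, 10.05 and 10.14 in WT males and 10.67, 10.32 and 10.50 in *Fmr1* KO males, with WT male 1 among the knockouts. It measured 10.45, 10.21, 10.12 and 10.06 in WT females and 10.21, 10.04, 10.43 and 9.76 in *Fmr1* KO females, with the lowest value in a knockout. *Olig2* measured 9.28, 8.88, 8.84 and 8.84 in WT males and 9.34, 9.08 and 9.19 in *Fmr1* KO males, where again only WT male 1 reached the knockouts. It measured 9.27, 9.23, 9.26 and 9.10 in WT females and 9.26, 9.17, 9.52 and 8.93 in *Fmr1* KO females, which overlapped. In males the differences were 0.30 ± 0.15 for *Olig1* and 0.25 ± 0.12 for *Olig2* (SE; limma adjusted p = 0.342 and 0.324), and in females −0.10 ± 0.14 and 0.0018 ± 0.11 (adjusted p = 0.756 and 0.996).

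The members were also averaged as a score per mouse, which is given with no test because the members were chosen with earlier results known. The myelin score of the 28 genes was 0.030, −0.23, −0.15 and −0.11 in the WT males and 0.23, −0.041 and 0.21 in the *Fmr1* KO males. It was 0.022, 0.048, 0.053 and −0.20 in the WT females and −0.11, 0.12, 0.39 and −0.26 in the *Fmr1* KO females. The means were −0.11 ± 0.11 (SD, n = 4), 0.13 ± 0.15 (n = 3), −0.019 ± 0.12 (n = 4) and 0.033 ± 0.28 (n = 4) in that order. The male groups overlapped by 1 mouse of each, WT male 1 and *Fmr1* KO male 3. The *Fmr1* KO females held both the highest and the lowest myelin score of all 15 mice, and their range of 0.65 compared with 0.25 to 0.27 in the other 3 groups.

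The precursor score was 0.15, −0.16, −0.10 and −0.13 in the WT males, 0.13, −0.028 and 0.080 in the *Fmr1* KO males, 0.15, 0.028, 0.011 and −0.047 in the WT females and 0.063, −0.11, 0.19 and −0.22 in the *Fmr1* KO females. Genotypes overlapped in both sexes. The myelin score minus the precursor score was −0.12, −0.066, −0.045 and 0.022 in WT males and 0.099, −0.012 and 0.13 in *Fmr1* KO males, and −0.13, 0.020, 0.042 and −0.15 in WT females and −0.18, 0.23, 0.20 and −0.043 in *Fmr1* KO females. Its mean was −0.052 ± 0.058 (SD, n = 4) in WT males and 0.073 ± 0.075 (n = 3) in *Fmr1* KO males, and −0.055 ± 0.10 and 0.052 ± 0.19 (n = 4 each) in females. The mean was higher in the knockouts of both sexes, and single mice overlapped in both.

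**Figure D4:**
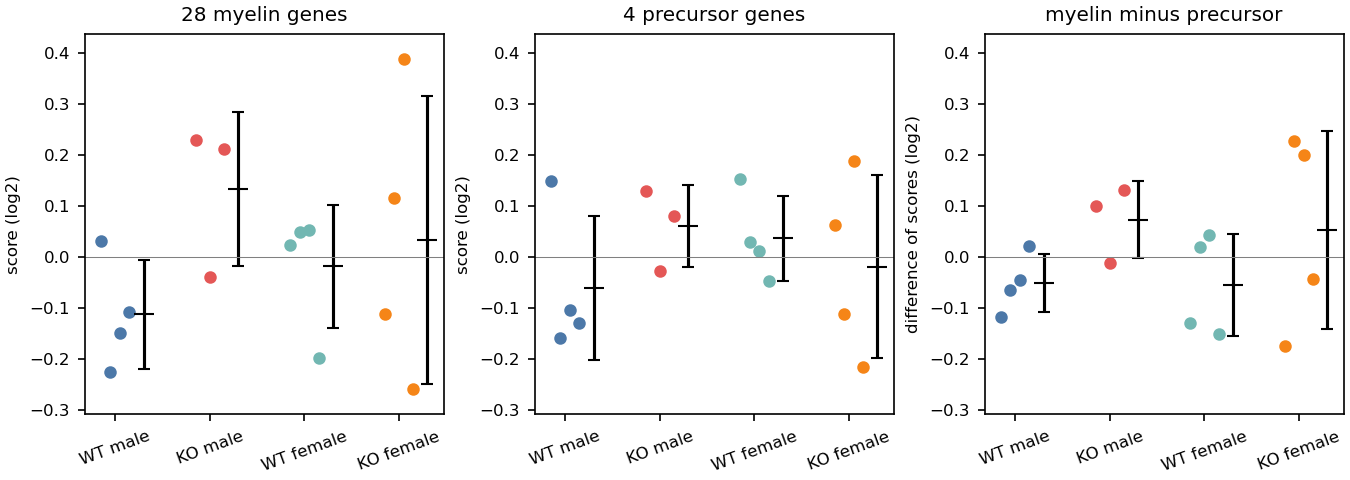
Scores per mouse (y axis, log2 scale) of the 28 myelin genes, the 4 precursor genes and their difference, by group (x axis); points are mice, and the black marks the mean and SD of the group (n = 4, 3, 4 and 4). The myelin score is highest in *Fmr1* KO female 3 at 0.39 and lowest in *Fmr1* KO female 4 at −0.26, and groups overlap in every panel.

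The myelin genes varied together from mouse to mouse. After the group means were removed, the first principal component held 81.5% of the variance of the 28 myelin genes, and all 28 had loadings of the same sign, against 44.2% for all genes tested. The median SD within groups was 0.20 for the myelin genes, with a range of 0.15 to 0.31, and 0.095 for all genes. The correlation of each gene's deviations with the myelin score of the others, over 15 mice that share 4 group means, was highest for *Gpr37* and *Myrf* (both 0.98) and lowest for *Nkx6-2* (0.61) and *Mal* (0.70) among the myelin genes. Of the precursor genes, *Olig2* (0.82), *Olig1* (0.75) and *Gpr17* (0.60) followed the myelin score, and *Pdgfra* did not (−0.10). The 28 myelin genes are therefore not 28 separate readings of a difference between groups.

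Genes of the same pathway outside the 32 were read from lists. None of the genes in the lists named here passed the adjusted threshold in any of the comparisons by genotype. Of 25 other genes of mature oligodendrocytes, 23 lay on the higher side over both sexes, against 51.1% of all genes, with a median of 0.15. At an unadjusted p under 0.05, 12 were higher and 1 lower, against 11.6% and 11.8% of all genes. In males 17 were higher and 1 lower, against 8.75% and 8.45% of all genes. In females none was higher and 1 lower, against 6.55% and 7.93%. Among them *Dock5*, a guanine nucleotide exchange factor, differed by 0.52 in males (limma adjusted p = 0.11) and 0.21 in females, and *Anln*, a septin-binding protein of myelin, by 0.50 (0.11) and 0.24. *Gamt*, which makes creatine, was the gene that was lower at that p, at −0.22 over both sexes (adjusted p = 0.0534).

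The 12 other precursor genes, among them the proteoglycans *Cspg4* and *Vcan*, had a median of 0.054 over both sexes. At an unadjusted p under 0.05, 0 of them were higher and 1 (8.33%) was lower, against 11.6% and 11.8% of all genes. Of 12 genes of committed precursors and newly formed oligodendrocytes, 2 (16.7%) were higher and 0 lower, near those shares. *Tcf7l2* differed by 0.67 (limma adjusted p = 0.143) and *Tmem163* by 0.26 (0.12), and *Tcf7l2* is also abundant in thalamic neurons. *Bcas1* and *Enpp6*, which mark newly formed oligodendrocytes, differed by 0.094 ± 0.094 and 0.097 ± 0.080 (SE; adjusted p = 0.579 and 0.493).

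Myelin needs much cholesterol, and the genes of its synthesis lay on the other side in males. The difference was below 0 for 17 of 19 genes, with a median of −0.17. Of all 15261 genes, 7619 lay below 0 in males, with a median of 0.00018. Of the 19, 9 were lower at an unadjusted p under 0.05, against 8.45% of all genes. *Hmgcs1*, an early enzyme of the pathway, differed by −0.30 ± 0.089 (SE; limma adjusted p = 0.165) and *Msmo1*, a late one, by −0.29 ± 0.092 (0.178). In females the difference was below 0 for 9 of 19, against 7451 of the 15261 genes. The median of the 19 was 0.011. None was at an unadjusted p under 0.05, against 6.55% of all genes higher and 7.93% lower. Among WT mice, females were below males for 16 of the 19 genes and for 7380 of all 15261. The median was −0.12 for the 19 and 0.0037 for all genes. At an unadjusted p under 0.05, 7 (36.8%) were lower in WT females, against 7.95% of all genes. On the higher side of the interaction, 8 (42.1%) passed that p, against 2.52% of all genes. These enzymes are also expressed by neurons and astrocytes. Of 12 other genes of galactolipid and sphingolipid metabolism, 1 (8.33%) was higher over both sexes at an unadjusted p under 0.05 and none was lower. Of all genes, 11.6% were higher and 11.8% lower. The higher gene was *Cers2*, a ceramide synthase (0.12, limma adjusted p = 0.17). Of 15 genes for nodes and paranodes of myelinated axons, 3 (20%) were higher and 2 (13.3%) lower over both sexes, against 11.6% and 11.8% of all genes. Their differences reached down to −0.37 and up to 0.26. *Cntn2*, an adhesion molecule made by both axon and oligodendrocyte, differed by 0.26 (adjusted p = 0.0744).

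Markers of other cells also differed between the genotypes. All 22 projection neuron markers lay on the lower side in *Fmr1* KO mice over both sexes, with a median of −0.49. Of them 2 (*Penk* and *Pdyn*) passed the adjusted threshold, which 1.28% of all genes passed (121 of the 15261 lower). The medians of the 22 markers were −0.38 in males and −0.55 in females. All 12 markers of neighbouring regions (thalamus, hypothalamus and septum) lay on the higher side over both sexes, with a median of 0.76 in males and 0.26 in females. Of 12 astrocyte markers, 7 lay on the higher side over both sexes and 9 in males, with a median of 0.029 and 0.072. Of 12 microglial markers all lay on the lower side over both sexes (median −0.15), as did 9 of 10 endothelial markers (−0.056), and 8 of 8 markers of leptomeningeal fibroblasts lay on the higher side (0.16). Of all genes tested, 51.1% lay on the higher side over both sexes and 50.1% in males. No marker of these lists was at 0 in the table.

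**Figure D5:**
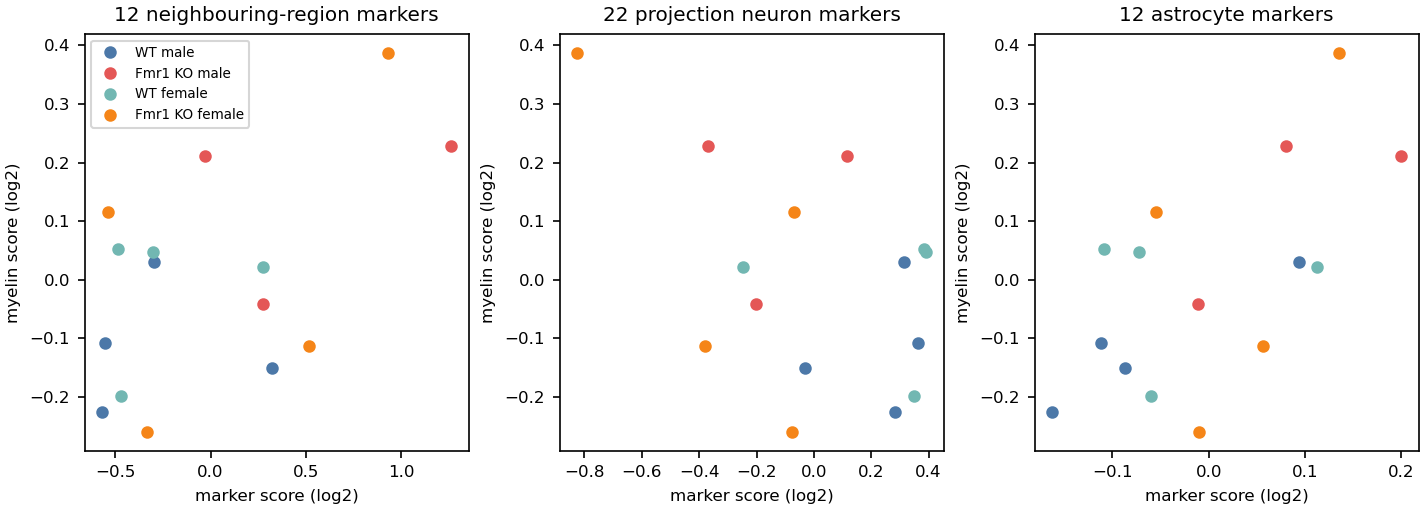
Myelin score of each mouse (y axis, log2 scale) against its score for 12 markers of neighbouring regions, 22 of striatal projection neurons and 12 of astrocytes (x axes, log2 scale), colored by group. *Fmr1* KO female 3, with the highest myelin score (0.39), has the lowest projection neuron score (−0.83) and a neighbouring-region score of 0.93, while *Fmr1* KO male 4, with a myelin score of 0.21, has a neighbouring-region score of −0.031.

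The neighbouring-region score ranged from −0.57 to 0.32 in WT males, −0.031 to 1.26 in *Fmr1* KO males, −0.49 to 0.27 in WT females and −0.54 to 0.93 in *Fmr1* KO females. The projection neuron score ranged from −0.030 to 0.36, −0.37 to 0.12, −0.25 to 0.39 and −0.83 to −0.069, and the astrocyte score from −0.16 to 0.094, −0.011 to 0.20, −0.11 to 0.11 and −0.055 to 0.14, in the same order of groups. With any of these scores as a covariate, no member was higher over both sexes at an unadjusted p under 0.05, against 9 without one. Of all genes, 5.33% were higher over both sexes with the neighbouring-region score, 1.92% with the projection neuron score and 8.11% with the astrocyte score, against 11.6% without one. In males, 7 members were higher at that p with the neighbouring-region score (3.3% of all genes), 13 with the projection neuron score (5.71%) and 5 with the astrocyte score (4.67%), against 18 without one (8.75%). The median of the myelin genes in males was 0.097 with the astrocyte score as a covariate. In females it was −0.11 with the projection neuron score. The scores themselves differed between the genotypes. The projection neuron score averaged 0.23 in WT and −0.15 in *Fmr1* KO males, and 0.22 and −0.34 in females. Fits with such scores therefore cannot tell the dissected area from genotype. The part of the dissected area in the differences of the members was not tested.

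Peripheral myelin was checked as well, since *Mbp*, *Mag* and *Gjb1* are also made by Schwann cells. Of 5 Schwann cell markers, 4 met the minimum for testing, and *Pmp2* was near 0 with a mean rlog of 0.049. None of the 4 lay on the higher side over both sexes or in females, against 51.1% and 51.2% of all genes. In males 2 of the 4 did, against 50.1%. The median differences of the 4 were −0.067, −0.080 and −0.051, in that order.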

How the data were processed

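Per the labels and the paper's methods, the authors made stranded mRNA libraries, aligned paired-end reads to mm10 (GRCm38) with STAR and obtained counts per gene. The deposited table holds rlog values (log2), which the authors derived from those counts with DESeq2. Use of strand in counting is not given in the sources used here. No counts were used here, so depth is unknown and precision rests on the spread between mice. The labels do not say whether mice of a group, or mice of the same number, shared a litter or day. Deviations of same-numbered WT and *Fmr1* KO mice correlated at 0.13, 0.35 and 0.37 in males. In females they correlated at 0.40, 0.026, −0.19 and 0.44. The main fits did not pair mice by number in either sex, and a replicate block was run only as an alternative.

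The 15261 genes whose rlog averaged 3 or more were fitted in limma 3.58.1 (R 4.3.3, variance trend, 2-sided, Benjamini-Hochberg over all genes tested, threshold 0.05). Both sexes were fitted with sex as a term, each sex alone, and the interaction and the WT sexes from 4 group means. Exon lengths came from GENCODE vM21, promoters from RefSeq, and plots from matplotlib 3.10.9 in Python 3.11.15.

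The members and lists were chosen with earlier results of these data known. All 32 members may be named. Values per mouse are given for *Mbp*, *Sox10*, *Myrf*, the precursor genes, and the 4 myelin genes with the smallest p over both sexes, in males and in females and the 2 smallest of the interaction. Of other lists up to 3 genes with the smallest p are named by the same rule; *Cspg4*, *Vcan*, *Bcas1* and *Enpp6* were added for their known roles. Alternatives were other minimums on the rlog, no variance trend, quantile normalization, sample weights, a replicate block, marker scores as covariates and leaving out each mouse. Some genes of the lists are counted but not reported here by name.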

Additional observations from a re-analysis of the deposited data

Results flagged for a closer look

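In groups of 4 mice, the gap of the highest or lowest mouse to its nearest neighbour was divided by the range of the group, and a share above Dixon's 95% critical value was taken as a mouse far from the others. Of 51 groups examined, 3 passed, where chance flags about 1 in 20. *Gpr17* measured 11.425 in WT female 1 and 11.212 to 11.247 in the other WT females, and this mouse also stood apart from the other WT females in its neuron and region markers. *Olig2* measured 9.275 in WT male 1 and 8.836 to 8.881 in the other WT males. The myelin score was −0.198 in WT female 4 and 0.022 to 0.053 in the other WT females.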

How the results depend on the processing

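No member was called in females or for the interaction under any alternative. With sample quality weights, 5 members passed over both sexes (4767 of all genes), 9 in males (1865 of all genes) and 2 between the WT sexes. All genes called between the WT sexes were not counted with weights, and 430 were called without them. Leaving out 1 mouse gave 0 to 3 members called over both sexes and 2 to 17 higher at an unadjusted p under 0.05. Of all genes, 8.41% to 13.9% were higher in these fits. In males 10 to 22 members were higher, against 4.69% to 13.5% of all genes. Over all 26 alternatives, 1 to 4767 of all genes were called over both sexes. Without WT male 3 and WT female 1 together, added after the data were seen, 4 members were higher over both sexes, against 15.5% of all genes. With the projection neuron, neighbouring-region or astrocyte score as a covariate (the last added after the data were seen), 0 were higher over both sexes. Of all genes, 1.92%, 5.33% and 8.11% were, in that order. In males 13 were higher with the projection neuron score, 7 with the neighbouring-region score and 5 with the astrocyte score. Of all genes, 5.71%, 3.3% and 4.67% were. The myelin median was 0.097 in males with the astrocyte score and −0.11 in females with the projection neuron score. The replicate number as a block changed no call of a member, with 0 called in any comparison. At an unadjusted p under 0.05, 9 members were higher over both sexes with the block, against 13.2% of all genes. In males 20 were higher, against 7.65%. Over all genes the block called 925 over both sexes, against 196, and 0 in males, against 1. The depth behind each value is unknown, and 3 or 4 mice a group limit every comparison within a sex.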
